A study of Mus musculus with 4 samples.

Results

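Eicosanoids are short-lived lipid signals that macrophages make from arachidonic acid, and they act on vessel tone, platelets, pain and the recruitment of leukocytes. Cytosolic phospholipase A2 frees arachidonic acid from membranes, after which the cyclooxygenases pass it to terminal synthases that make prostaglandins and thromboxane. Along the other branch, 5-lipoxygenase and its activating protein turn it into leukotriene A4, which Lta4h converts to leukotriene B4. The genes described here are the enzymes of these steps, taken from the count table by exact symbol: Pla2g4a, Ptgs1, Ptgs2, Ptges, Ptges3, Tbxas1, Alox5, Alox5ap, Lta4h and Hpgds. All 10 were found among the 13834 genes listed, and all 10 passed the filter on low counts, which left 12542 genes to be tested.

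RNA was sequenced from peritoneal macrophages of 10-week-old mice that had received thioglycolate broth in the abdomen 3 days before the cells were washed out. The broth draws leukocytes into the cavity, and the washed-out cells were then kept in culture medium. There were 2 samples from Dnmt1 fl/fl mice, whose Dnmt1 gene is floxed but intact, and 2 from Dnmt1 KO mice, whose floxed gene is combined with Cre recombinase driven by the LysM promoter, so that it is deleted in myeloid cells. Dnmt1 encodes the methyltransferase that copies DNA methylation to the new strand at replication, so the comparison asks how its loss in the macrophage bears on the expression of these enzymes. The study's methods describe no sort of the cells, and cells outside the myeloid lineage keep an intact Dnmt1 gene. The Dnmt1 fl/fl libraries held 20228071 (replicate 1) and 24198943 (replicate 2) counts, the Dnmt1 KO libraries 21767795 (replicate 1) and 22611219 (replicate 2). Levels are given as CPM, counts divided by the library total times its TMM factor and brought to a common scale, and 3 counts correspond to 0.12 to 0.151 CPM. The labels do not say whether replicates came from separate mice, so p-values then measure only the spread between these samples, which may be technical.

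Dnmt1 itself was at 86.6 and 67.0 CPM in the Dnmt1 fl/fl samples and at 37.0 and 42.7 CPM in the Dnmt1 KO samples. Both Dnmt1 KO samples were lower, in the direction of their labels, and transcripts of the gene remained. The log2 fold change was -0.95 (SE 0.24, 95% interval -1.54 to -0.35). By the quasi-likelihood test in edgeR the unadjusted p was 0.00839 and the adjusted p 1.00. Without Dnmt1 fl/fl replicate 1 the log2 fold change was -0.75, with an unadjusted p of 0.141. The macrophage genes were high in every sample, and the 8 on the list summed to 6469, 6393, 7083 and 6142 CPM in Dnmt1 fl/fl replicates 1 and 2 and Dnmt1 KO replicates 1 and 2, with the integrin Itgam the most abundant. All 8 had genotypes that overlapped.

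The libraries did not stand at equal distances from each other. The neutrophil genes, of which 7 of 9 were listed and 6 tested, summed to 36.4 and 124 CPM in the Dnmt1 fl/fl samples and to 594 and 35.5 CPM in the Dnmt1 KO samples. All 6 tested were highest in Dnmt1 KO replicate 1. The second place of Dnmt1 fl/fl replicate 2 rests on 3 of the 6 (S100a8, S100a9 and Cxcr2), whereas Mmp8, Retnlg and Ltf were lower in it than in Dnmt1 fl/fl replicate 1, and these genes apart from S100a9 were named after their values were seen. S100a9, the most abundant of them, was at 5.55, 60.5, 320 and 8.35 CPM in the same order of samples. Ly6g, the marker that defines neutrophils, did not pass the filter and had 1, 8, 79 and 1 counts. The 6 B cell genes summed to 124, 199, 40.4 and 220 CPM, with Cd79a the most abundant, and were lowest in Dnmt1 KO replicate 1. Several enzyme genes moved with these libraries, as given below with each of them. In bulk RNA, fewer cells of a type and less RNA per cell cannot be told apart.

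None of the 10 enzyme genes passed the test between genotypes. Their adjusted p was 1.00 in each case (edgeR's quasi-likelihood test, Benjamini-Hochberg), and 0 of 10 had an unadjusted p under 0.05. Of the whole table tested, 0 genes (0%) passed 0.05 after adjustment and 35 (0.279%) before it. DESeq2 called 1 gene of the table, and limma-voom 0. The log2 fold changes of the enzymes ran from -0.35 for Hpgds to 0.36 for Alox5ap with a median of -0.09, against 0.00 over all genes tested, and 7 were below 0. In 3 genes, Ptgs1, Tbxas1 and Alox5, the genotypes did not overlap and Dnmt1 KO was the lower, an order seen in 8.56% of all genes tested. The reverse order was seen in 0 of the 10 enzymes and in 8.14% of all genes tested. A log2 fold change of -0.2 or lower was found for 4 enzymes (Ptgs1, Ptges, Alox5 and Hpgds), against 19.7% of all genes tested, and one of 0.2 or higher for 1 enzyme (Alox5ap), against 21.8%. Over all genes these shares depended on the scaling. With none beyond the library total, 10.6% were lower and 5.94% higher without overlap, and 26.7% and 13.5% passed the fold limits downward and upward, while the counts of enzymes were the same. For 2 samples against 2, the smallest p that exact permutation allows for 1 gene, two-sided, is 0.333.

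**Figure D1:**
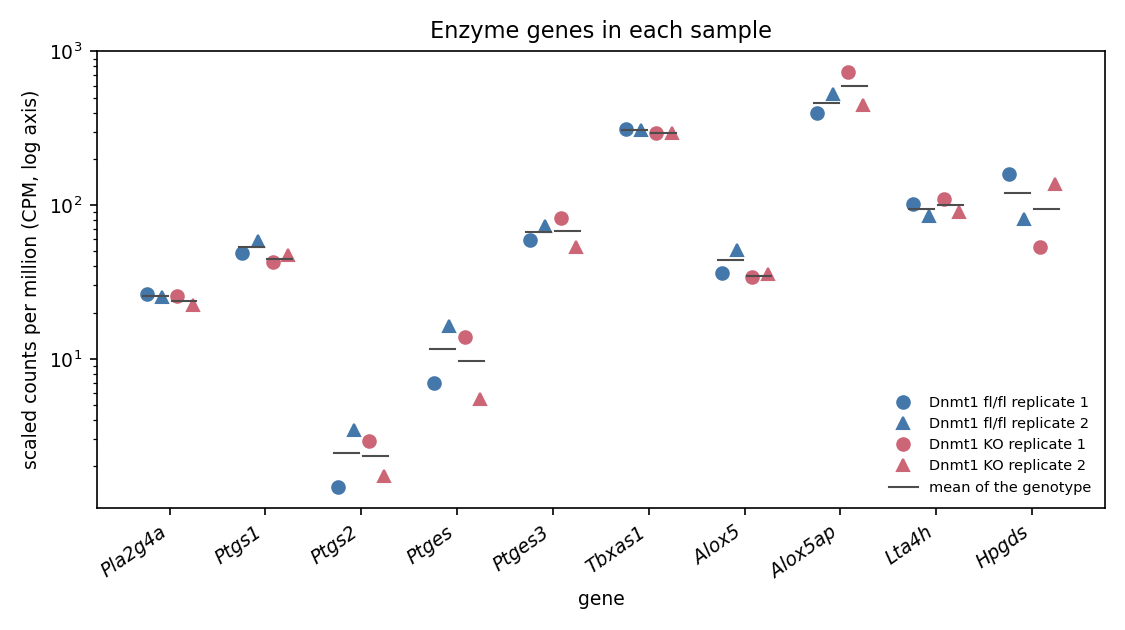
Scaled CPM (log axis) of the 10 enzyme genes in each of the 4 samples, with Dnmt1 fl/fl in blue, Dnmt1 KO in red, circles for replicate 1, triangles for replicate 2 and a line at each genotype's mean. The levels run from 1.46 CPM for Ptgs2 to 740 CPM for Alox5ap, and the genotypes separate only for Ptgs1, Tbxas1 and Alox5.

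Pla2g4a encodes the calcium-dependent cytosolic phospholipase A2 that releases arachidonic acid. It lies on the minus strand of chromosome 1 from 149829618 to 149961290 (GENCODE annotation of GRCm38), and 139 kb separate it from Ptgs2. Its level was 26.2 and 25.1 CPM in Dnmt1 fl/fl and 25.5 and 22.2 CPM in Dnmt1 KO macrophages. The genotypes overlapped, since Dnmt1 KO replicate 1 was between the Dnmt1 fl/fl samples, and only Dnmt1 KO replicate 2 was a little lower than the other samples. Between genotypes the log2 fold change was -0.10 (SE 0.21, 95% interval -0.63 to 0.43). Without Dnmt1 KO replicate 1 it was -0.21, and without Dnmt1 KO replicate 2 it was -0.0061. Its spread between replicates was small, with 12.3% of all genes tested at or below it.

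Ptgs1 encodes cyclooxygenase-1, the form that many cells express constantly, and lies on chromosome 2 from 36230426 to 36252272. It was measured at 49.2 and 58.1 CPM in Dnmt1 fl/fl and at 42.4 and 47.2 CPM in Dnmt1 KO samples. Every Dnmt1 KO sample was below every Dnmt1 fl/fl sample, but Dnmt1 KO replicate 2 was close to Dnmt1 fl/fl replicate 1. The log2 fold change was -0.26 (SE 0.21, 95% interval -0.79 to 0.27, edgeR's unadjusted p = 0.274). The replicates differed by 0.24 on the log2 scale in Dnmt1 fl/fl and by 0.15 in Dnmt1 KO, a little less than the genotypes did, and the difference between genotypes did not pass the test. Without Dnmt1 fl/fl replicate 2 it was -0.13. Its exons overlap an unclassified transcript on the opposite strand, and 1.84% of its 100-base stretches are found in that gene.

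Ptgs2 encodes cyclooxygenase-2, the inducible form, which rises in macrophages after inflammatory stimuli. It lies on the plus strand of chromosome 1 from 150100031 to 150108227. Its counts were low, with 30 and 86 in the Dnmt1 fl/fl samples and 58 and 41 in the Dnmt1 KO samples, or 1.46, 3.43, 2.93 and 1.74 CPM. The Dnmt1 KO samples were both between the Dnmt1 fl/fl samples, so the replicates differed more than the genotypes did. The log2 fold change of -0.08 had an SE of 0.57, and its 95% interval from -1.50 to 1.34 leaves room for a change of more than 2-fold in either direction. Per kilobase of exon, Ptgs1 exceeded Ptgs2 in all 4 samples, by 52.2 and 26.3 times in Dnmt1 fl/fl and by 22.5 and 42.2 times in Dnmt1 KO macrophages. By coding length the ratio was 14.5 to 33.7, so by either length Ptgs1 was the main cyclooxygenase transcript in all 4 samples.

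Of the terminal synthases, Ptges encodes the microsomal prostaglandin E synthase that is induced together with cyclooxygenase-2 in inflamed tissue. It lies on chromosome 2 from 30889471 to 30929863 on the minus strand. It was at 6.97 and 16.3 CPM in Dnmt1 fl/fl and at 13.9 and 5.47 CPM in Dnmt1 KO samples. Dnmt1 fl/fl replicate 2 and Dnmt1 KO replicate 1 were the high samples, as for Ptgs2, and the genotypes overlapped. The samples of a genotype differed 2.33-fold in Dnmt1 fl/fl and 2.55-fold in Dnmt1 KO macrophages. Against that spread, the log2 fold change between genotypes was -0.26 (SE 0.59, 95% interval -1.74 to 1.21). Without Dnmt1 KO replicate 1 it was -1.09, and without Dnmt1 fl/fl replicate 2 it was 0.48, so its direction depended on single libraries.

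Ptges3 encodes the co-chaperone p23, which has been described as a cytosolic prostaglandin E synthase as well, and lies on chromosome 10 from 128058954 to 128077272. Its level was 59.6 and 73.2 CPM in Dnmt1 fl/fl and 82.3 and 53.2 CPM in Dnmt1 KO macrophages. Once more the second Dnmt1 fl/fl sample and the first Dnmt1 KO sample were high, and the Dnmt1 KO samples enclosed the Dnmt1 fl/fl samples. The log2 fold change was 0.03 (SE 0.29), and it was -0.064 without scaling beyond the library total. Its count is less certain than the others, because 20.2% of its 100-base stretches also occur in transcripts of 2 other genes, chiefly the processed pseudogene Ptges3-ps.

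Tbxas1 encodes thromboxane A synthase, whose product contracts vessels and activates platelets. It lies on chromosome 6 from 38875404 to 39084585, and an antisense gene overlaps its exons. The gene was abundant and nearly the same in all samples, at 313 and 306 CPM in Dnmt1 fl/fl and 296 and 295 CPM in Dnmt1 KO macrophages. Both Dnmt1 KO samples were lower, by a small margin, with a log2 fold change of -0.07 (SE 0.21, 95% interval -0.60 to 0.46). The SD between its replicates was 0.0159 on the log2 scale, and 0.303% of all genes tested had an SD that low. The standard error is larger than that SD because the test shares its estimate of the spread across genes. Tbxas1 is also the synthase of platelets, and of the platelet genes 5 of 7 were listed and 4 tested, with sums of 98.3, 87.0, 163 and 101 CPM in Dnmt1 fl/fl replicates 1 and 2 and Dnmt1 KO replicates 1 and 2. Nearly all of that was Pf4, a chemokine that macrophages express too, at 94.6, 84.0, 160 and 98.3 CPM, and the platelet genes Gp1bb and Gp9 were not analysed here.

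Hpgds encodes the hematopoietic prostaglandin D synthase, known from mast cells and from macrophages, and lies on chromosome 6 from 65117293 to 65144908 on the minus strand. It was measured at 160 and 81.6 CPM in Dnmt1 fl/fl and at 53.4 and 137 CPM in Dnmt1 KO samples. Here Dnmt1 fl/fl replicate 2 and Dnmt1 KO replicate 1 were the low samples, the mirror image of Ptges, and the genotypes overlapped. The samples of a genotype differed 1.96-fold in Dnmt1 fl/fl and 2.56-fold in Dnmt1 KO macrophages, and the log2 fold change was -0.35 (SE 0.53, 95% interval -1.67 to 0.98). Without Dnmt1 KO replicate 1 it was 0.18, and without Dnmt1 KO replicate 2 it was -1.18 (edgeR's quasi-likelihood test, adjusted p = 0.0547), the lowest adjusted p of any enzyme in any setting. Mast cell and basophil genes, with 7 of 9 listed, summed to 18.0, 20.4, 27.4 and 14.4 CPM in Dnmt1 fl/fl replicates 1 and 2 and Dnmt1 KO replicates 1 and 2. Hdc, the most abundant of them, made up most of the difference, at 5.26, 9.65, 17.1 and 5.42 CPM, and without it the sums were 12.7, 10.8, 10.3 and 8.94 CPM. Of the 6 tested, 3 were highest and 2 were lowest in Dnmt1 KO replicate 1, where Hpgds was lowest. Those lowest there were the protease gene Cpa3 (3.85, 2.75, 2.02 and 2.46 CPM) and Kit (2.29, 1.87, 1.51 and 2.33 CPM), the latter named after its values were seen. Cpa3 and Cma1 (4.38, 4.07, 3.89 and 2.37 CPM), 2 of the 6, were lower in both Dnmt1 KO samples, against 8.56% of all genes tested. Their log2 fold changes were -0.56 (SE 0.41) for Cpa3 and -0.43 (SE 0.40) for Cma1. The part of mast cells in the values of Hpgds was not tested.

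**Figure D2:**
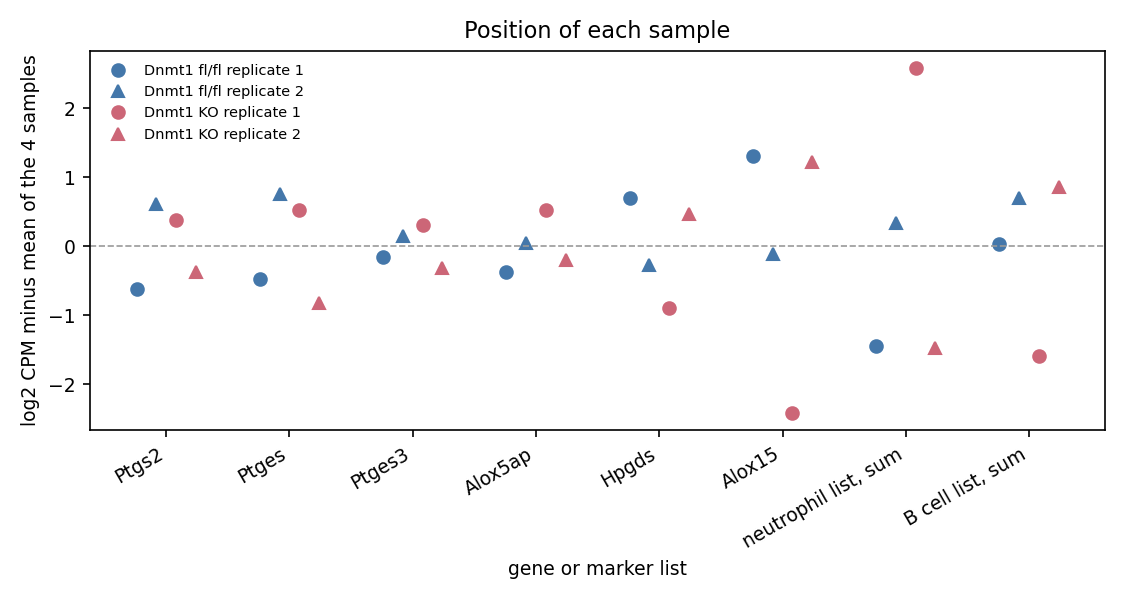
Log2 scaled CPM minus the mean of the 4 samples (vertical axis) for 5 enzyme genes, Alox15 and the summed neutrophil and B cell genes, 1 point per sample with colors by genotype and shapes by replicate. Dnmt1 fl/fl replicate 2 and Dnmt1 KO replicate 1 lie above the other samples for Ptgs2, Ptges, Ptges3, Alox5ap and the neutrophil sum, and below them for Hpgds and Alox15.

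The balance among the terminal synthases thus differed more between libraries than between genotypes. Per kilobase of exon, Hpgds exceeded Ptges by 24.1 times in Dnmt1 fl/fl replicate 1 and by 26.3 times in Dnmt1 KO replicate 2. In Dnmt1 fl/fl replicate 2 and Dnmt1 KO replicate 1 the same ratio was 5.26 and 4.02. Tbxas1 was above Hpgds in all 4 samples by exon length, by 2.19 to 6.22 times. By coding length the ratio of Tbxas1 to Hpgds ran from 0.73 to 2.07, so the order of these genes depends on the length used.

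Alox5 encodes 5-lipoxygenase, which makes leukotriene A4, and lies on the minus strand of chromosome 6 from 116410077 to 116461178. Its level was 36.1 and 51.3 CPM in Dnmt1 fl/fl and 34.0 and 35.4 CPM in Dnmt1 KO macrophages. The genotypes did not overlap and Dnmt1 KO was the lower, but Dnmt1 fl/fl replicate 1 was nearer to them than to its own replicate. The log2 fold change was -0.33 (SE 0.25, 95% interval -0.95 to 0.28, edgeR's unadjusted p = 0.230). Without Dnmt1 fl/fl replicate 2 it was -0.053.

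Alox5ap encodes the 5-lipoxygenase activating protein, a membrane protein that presents arachidonic acid to 5-lipoxygenase. It lies on chromosome 5 from 149264767 to 149288153 and was the most abundant of the 10 enzymes per kilobase. Its level was 398 and 531 CPM in Dnmt1 fl/fl and 740 and 450 CPM in Dnmt1 KO macrophages. The genotypes overlapped, and Dnmt1 KO replicate 1, the sample with the highest neutrophil sum, was the highest. Between genotypes the log2 fold change was 0.36 (SE 0.33, 95% interval -0.47 to 1.18). It was -0.050 without Dnmt1 KO replicate 1 and 0.67 without Dnmt1 KO replicate 2 (edgeR's quasi-likelihood test, adjusted p = 0.0961). Neutrophils express Alox5 and Alox5ap as well, and the part of the neutrophil genes in these values was not tested. Alox5 did not share the order of Alox5ap, since it was lowest in Dnmt1 KO replicate 1. An antisense gene overlaps exons of Alox5ap, and 0.694% of its 100-base stretches are found there.

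Lta4h encodes leukotriene A4 hydrolase, which makes leukotriene B4, an attractant of neutrophils, and lies on chromosome 10 from 93453411 to 93484875. It was at 102 and 85.6 CPM in Dnmt1 fl/fl and at 109 and 90.8 CPM in Dnmt1 KO samples. In each genotype replicate 1 was the higher, and the genotypes overlapped, with a log2 fold change of 0.09 (SE 0.23, 95% interval -0.49 to 0.68). Ltc4s, which turns leukotriene A4 into leukotriene C4 instead, was at 173 and 291 CPM in Dnmt1 fl/fl and at 250 and 207 CPM in Dnmt1 KO macrophages. Per kilobase of exon, Ltc4s exceeded Lta4h by 5.28 to 10.6 times, and it overlaps an antisense gene.

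**Figure D3:**
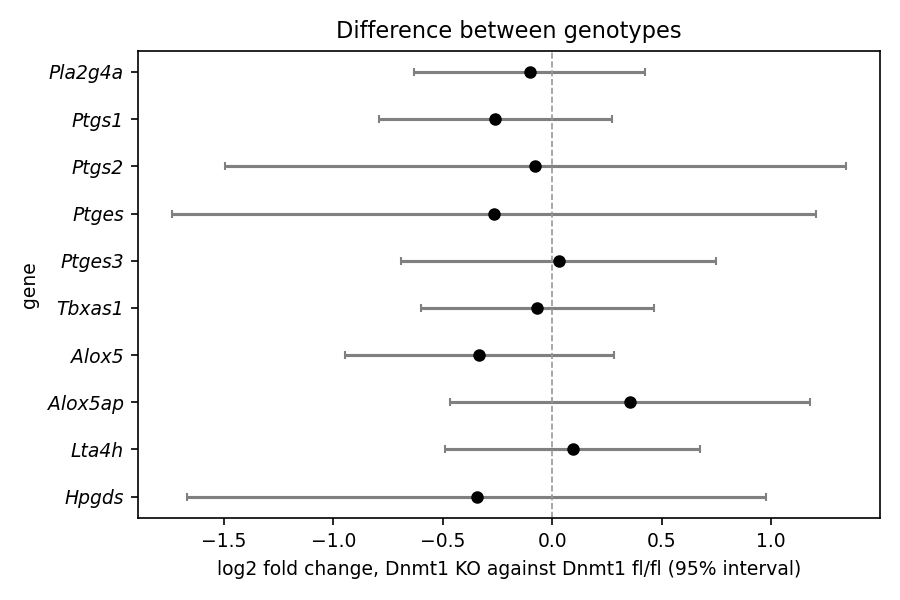
Log2 fold change of each enzyme gene in Dnmt1 KO against Dnmt1 fl/fl macrophages (points) with 95% intervals from the quasi-likelihood fit (lines), 2 samples a genotype. All 10 intervals include 0, and those of Ptgs2, Ptges and Hpgds are the widest.

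The levels of the 10 enzymes can be ranked only per length. Alox5ap led with 394 ± 112 CPM per kilobase of exon (SD, n = 4), followed by Tbxas1 with 97.5 ± 2.79 (SD, n = 4) and Lta4h with 47.8 ± 5.28 (SD, n = 4). Ptges3 at 33.5 ± 6.57 and Hpgds at 31.1 ± 14.1 CPM per kilobase (SD, n = 4) came next and did not differ beyond their spread. Hpgds varied so widely that it overlapped Lta4h, Ptgs1 and Alox5 in range too. Ptgs1 at 17.2 ± 2.29 and Alox5 at 13.9 ± 2.87 CPM per kilobase (SD, n = 4) overlapped in range, although within each of the 4 samples Ptgs1 was the higher. The lowest were Pla2g4a at 8.12 ± 0.573, Ptges at 2.92 ± 1.44 and Ptgs2 at 0.536 ± 0.211 CPM per kilobase (SD, n = 4). The activating protein thus exceeded 5-lipoxygenase by 21.7 to 45.7 times, the highest of these in Dnmt1 KO replicate 1, and by 43.4 to 91.2 times by coding length. By coding length the mean of Alox5ap stayed first and that of Ptgs2 last, Tbxas1 (189) and Hpgds (181 CPM per kilobase) did not differ beyond the spread of Hpgds, Hpgds and Ptges3 passed Lta4h, and Ptges passed Alox5 and Pla2g4a.

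Across the 10 enzymes, 4 (Ptgs2, Ptges, Ptges3 and Alox5ap) were higher in both Dnmt1 fl/fl replicate 2 and Dnmt1 KO replicate 1 than in the other samples, and Hpgds was lower in both. Over all genes tested, 28.7% had the first order and 29.1% the second, so these libraries resembled each other across the table and not only in this pathway. Alox15, a lipoxygenase known from resident peritoneal macrophages, followed Hpgds, at 68.2 and 25.4 CPM in Dnmt1 fl/fl and 5.15 and 64.1 CPM in Dnmt1 KO samples. The 8 resident macrophage genes, Alox15 among them, were divided in this. Vsig4, Selp and F5 had the order of Alox15. Cd5l, Timd4, Icam2 and Gata6 did not, and were higher in Dnmt1 fl/fl replicate 2 than in replicate 1. These genes were sorted after their values were seen. Il1b and the leukotriene B4 receptor Ltb4r1, chosen after their values were seen, followed Ptges. Il1b was at 8.18 and 34.7 CPM in Dnmt1 fl/fl and 33.5 and 7.46 CPM in Dnmt1 KO samples, and Ltb4r1 at 6.33, 20.3, 25.6 and 9.19 CPM. The 8 genes of resident large peritoneal macrophages were all below 0 in log2 fold change, with a median of -0.42 and 0 with an unadjusted p under 0.05. They summed to 964, 1340, 761 and 955 CPM, with Cd5l the most abundant, and Timd4 (91.4, 140, 67.6 and 78.8 CPM) and Icam2 (41.4, 72.2, 28.4 and 40.5 CPM) had genotypes that did not overlap, 2 of 8 against 8.56% of all genes tested. What part the makeup of the cells had in the values of the enzymes was not tested.

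Genes that switch on with inflammation or handling were compared because Ptgs2 is itself induced by such stimuli. Of 15 inflammatory response genes 12 were listed and 11 tested, and they summed to 443 and 484 CPM in Dnmt1 fl/fl and 535 and 261 CPM in Dnmt1 KO samples, with Il1rn the most abundant. The lowest sample was Dnmt1 KO replicate 2, which was also low for Ptges and Ptges3. Ptgs2 itself was lowest in Dnmt1 fl/fl replicate 1, at 1.46 CPM against 1.74 CPM in Dnmt1 KO replicate 2. In 3 of the 11, against 8.56% of all genes tested, the Dnmt1 KO samples were both lower, namely Nfkbiz with a log2 fold change of -0.76 (SE 0.43), Il1a with -0.69 (SE 0.28) and Tnfaip3 with -0.58 (SE 0.29). The 12 immediate early genes summed to 1368, 1374, 1505 and 964 CPM, with Atf3 the most abundant, and 2 of the 12, Btg2 and Egr1, were lower in both Dnmt1 KO samples, against the same 8.56%. Of the 11 inflammatory response genes, 10 had a log2 fold change below 0 and 1 above, with a median of -0.16. Of the 12 immediate early genes, 9 were below 0 and 3 above, with a median of -0.13. In both lists 0 genes had an unadjusted p under 0.05, and 0 were higher in both Dnmt1 KO samples.

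The other genes of the pathway were taken from 7 lists. Of 87 symbols 67 were listed, and 61 rows were tested, 30 with a log2 fold change above 0 and 31 below. Of these 61, 0 passed 0.05 after adjustment and 1 before it, while 6 were higher and 4 lower in both Dnmt1 KO samples, shares near the 8.14% and 8.56% of all genes tested. The gene with the low p was Dpep2, a dipeptidase that converts leukotriene D4 to E4, at 22.4 and 24.3 CPM in Dnmt1 fl/fl and 10.9 and 16.9 CPM in Dnmt1 KO samples, a log2 fold change of -0.75 (SE 0.29, edgeR's quasi-likelihood test, unadjusted p = 0.0458, adjusted p = 1.00). The table holds a second, far more abundant row of the same symbol at 356, 441, 434 and 334 CPM with a log2 fold change of -0.05, so the low p belongs to the scarcer row. With the replicate block, or with no scaling beyond the library total, 0 of the other pathway genes had an unadjusted p under 0.05, Dpep2 included.

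Upstream of the cyclooxygenases, 11 other phospholipase A2 genes and regulators were tested, with 0 under an unadjusted p of 0.05. The most abundant was Anxa1, an inhibitor of the pathway, with a log2 fold change of -0.05 (SE 0.31). Pla2g7, which breaks down platelet-activating factor, was at 356 and 361 CPM in Dnmt1 fl/fl and 571 and 373 CPM in Dnmt1 KO samples, higher in both but mostly in replicate 1 (0.40, SE 0.28). Pnpla8 had a log2 fold change of -0.09 with both Dnmt1 KO samples lower. Among 14 genes of arachidonate storage and release, all tested, the median log2 fold change was 0.00, and Daglb was the most abundant. Lpcat3, which puts arachidonate into membranes, was higher (0.18, SE 0.21) and Acsl3 lower (-0.16, SE 0.29) in both Dnmt1 KO samples.

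Of 5 other prostanoid synthases tested, 0 had an unadjusted p under 0.05. Akr1b3 was the most abundant, Ptgis, the prostacyclin synthase, was at 13.8, 10.5, 12.5 and 8.35 CPM, and Ptgds was not analysed here. Per kilobase, prostacyclin synthase was at 4.93 ± 1.04 CPM (SD, n = 4), well under Tbxas1. Among 5 genes of prostanoid transport and breakdown, of which Ptgr2 was the most abundant, Hpgd, which inactivates prostaglandins, was low at 1.71 and 1.79 CPM in Dnmt1 fl/fl and 1.82 and 2.20 CPM in Dnmt1 KO samples. The other leukotriene and lipoxygenase genes were led by Cotl1, which encodes a protein that binds 5-lipoxygenase, and 15 rows were tested. Mgst1 was at 94.9 and 63.3 CPM in Dnmt1 fl/fl and 138 and 108 CPM in Dnmt1 KO samples (log2 fold change 0.64, SE 0.29), higher in both, and the exporter Abcc1 was slightly lower in both Dnmt1 KO samples (-0.14, SE 0.20).

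The receptors that sense these lipids were compared next. Of 5 prostanoid receptors tested, Ptgir, the prostacyclin receptor, was the most abundant at 34.4, 65.2, 56.5 and 40.1 CPM, again highest in Dnmt1 fl/fl replicate 2 and Dnmt1 KO replicate 1. Ptger2 was at 37.7 and 31.1 CPM in Dnmt1 fl/fl and 41.2 and 39.2 CPM in Dnmt1 KO samples, higher in both (0.22, SE 0.21). Ptger4 was at 26.4, 26.5, 30.2 and 20.5 CPM and overlapped. Of 6 leukotriene and pro-resolving lipid receptors tested, 0 had genotypes that did not overlap. Cmklr1 was the most abundant, and Cysltr1, the receptor of leukotriene D4, was at 64.6 and 80.7 CPM in Dnmt1 fl/fl and 40.3 and 68.1 CPM in Dnmt1 KO samples (-0.42, SE 0.32).

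Genes of other cells that the cavity can hold were summed as well. Eosinophil genes, 3 of 7 listed, summed to 7.67 to 14.1 CPM with Ccr3 the most abundant. T and NK cell genes summed to 21.8 to 34.7 CPM with Lck the most abundant. Of the 7 tested, 1 was higher in both Dnmt1 KO samples, against 8.14% of all genes tested. It was Trac, at 1.85 and 2.87 CPM in Dnmt1 fl/fl and 3.18 and 3.14 CPM in Dnmt1 KO samples (log2 fold change 0.42, SE 0.41). Dendritic cell genes summed to 14.5 to 31.9 CPM with Flt3 the most abundant. Mesothelial and stromal genes, which mark the lining of the cavity, summed to 20.3 and 27.9 CPM in Dnmt1 fl/fl and 54.0 and 15.2 CPM in Dnmt1 KO samples, with Dcn the most abundant and Dnmt1 KO replicate 1 the highest. The genes of recruited monocytes and small peritoneal macrophages summed to 2267, 1999, 1238 and 2309 CPM with H2-Aa the most abundant, lowest in Dnmt1 KO replicate 1 like Hpgds.

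Dnmt1 acts on cytosines that are followed by guanine (CG), so windows before the starts that RefSeq gives for the enzyme genes were read for CG. Windows of 250 bases were taken (RefSeq, GRCm38.p6), with an entry for 9 of the 10 enzymes; Alox5ap had none. Not all of them lie before the gene as GENCODE draws it: the windows of Tbxas1, Ptges and the inner start of Pla2g4a are wholly inside the gene, and 178 bases of the Hpgds window are in its exons. DNA methylation of these windows was not measured in the samples used here. The CG count was 38 for Ptges3, 13 for Ptgs2, 11 for Lta4h, 8 for Ptges, 5 for Ptgs1, 5 for Alox5, 4 for Tbxas1 and 3 for Hpgds, and the 2 starts of Pla2g4a had 3 and 1. The median was 15 over the windows of genes tested here and 6 over all 32851 windows, so every enzyme with an entry except Ptges3 was below the median of the genes tested. Of the 3 enzymes that were lower in both Dnmt1 KO samples, Ptgs1 and Alox5 had 5 CG, and Tbxas1 had 4 in its window inside the gene. The window with the most CG, that of Ptges3, belonged to a gene with a log2 fold change of 0.03.

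The windows of the phospholipase, of both cyclooxygenases and of Ptges3 are shown because they span that range, and because the cyclooxygenases differ so much in level. CG is in capitals, and each sequence is given 5′ to 3′ on the strand of its gene, ending at the base before the start. The first is chr1:149961291-149961540 (minus strand), the second chr2:36230176-36230425 (plus), the third chr1:150099781-150100030 (plus) and the fourth chr10:128058732-128058981 (plus). The first 3 lie wholly upstream of the gene in GENCODE, and the last 28 bases of the Ptges3 window are in its first exon there. The Ptgs2 window also overlaps Ptgs2os, another gene of the GENCODE annotation.
Pla2g4a: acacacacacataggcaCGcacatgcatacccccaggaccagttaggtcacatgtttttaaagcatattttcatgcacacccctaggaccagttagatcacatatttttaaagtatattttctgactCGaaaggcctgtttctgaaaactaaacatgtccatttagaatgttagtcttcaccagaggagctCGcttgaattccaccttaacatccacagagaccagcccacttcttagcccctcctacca
Ptgs1: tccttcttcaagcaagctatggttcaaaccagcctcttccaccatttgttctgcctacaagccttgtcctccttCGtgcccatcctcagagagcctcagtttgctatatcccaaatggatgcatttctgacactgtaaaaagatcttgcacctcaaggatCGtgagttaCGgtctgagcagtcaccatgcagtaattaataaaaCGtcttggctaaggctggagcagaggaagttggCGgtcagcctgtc
Ptgs2: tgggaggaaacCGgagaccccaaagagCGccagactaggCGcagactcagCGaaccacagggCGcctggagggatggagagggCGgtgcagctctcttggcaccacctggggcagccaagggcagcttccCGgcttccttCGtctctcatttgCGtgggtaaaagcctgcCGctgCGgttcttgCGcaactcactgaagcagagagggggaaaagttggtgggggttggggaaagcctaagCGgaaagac
Ptges3: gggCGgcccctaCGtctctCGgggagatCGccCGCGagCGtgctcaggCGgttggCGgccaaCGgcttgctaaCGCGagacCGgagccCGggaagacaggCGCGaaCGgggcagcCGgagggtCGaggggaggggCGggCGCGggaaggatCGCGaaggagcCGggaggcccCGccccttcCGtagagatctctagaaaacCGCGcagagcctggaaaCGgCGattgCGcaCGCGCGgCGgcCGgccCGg

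As many CG as in the Ptges3 window or more were found in 1.88% of all windows, against 31.5% for Ptgs2, 55.6% for Ptgs1 and 71.0% for the outer start of Pla2g4a. Both strands were searched for the letters GGGCGG, which contain a CG, and for TATAAA. The first occurred 3 times in the Ptges3 window, 1 time in that of Ptgs2 and 0 times in those of Ptgs1 and Pla2g4a, and 32.7% of all windows hold it. The second was found in 0 of the 4 windows shown and in 12.4% of all windows. A match of letters is a description of the sequence only.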

How the data were processed

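Counts per gene were analyzed in peritoneal macrophages (Dnmt1 fl/fl, 2 samples, and Dnmt1 KO, 2 samples). Per the submitters' notes, reads were aligned to mm10 with HISAT2 2.0.5 and counted with featureCounts 1.5.0-p3; the authors deposited estimated counts, of which 72.6% to 76.4% a sample were whole. How reads of several genes were shared, the strand setting and the annotation are not given in the sources used here. Every listed gene is above 0 in all samples. A shorter table was not used.

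Counts were rounded, filtered (filterByExpr), scaled (TMM, factors 0.91 to 1.04) and tested with edgeR 4.0.16 (R 4.3.3), two-sided quasi-likelihood F-test, Benjamini-Hochberg over 12542 genes. CPM per kilobase used merged exons of GENCODE M21 basic transcripts (GRCm38, the sequence of mm10). Alternatives were DESeq2 1.42.0, limma-voom 3.58.1, other filters and scalings, a replicate block, other lengths and leaving out each sample. Members and lists were chosen with earlier results of these data known. Besides the 10 enzymes, the text names the most abundant gene of each list, genes with an unadjusted p under 0.05, at most 3 per list with the largest non-overlapping changes (mean of at least 1 CPM), and neighboring steps of the pathway. The floor of 3 counts covers counting error only.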

Additional observations from a re-analysis of the deposited data

How the results depend on the processing

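Across DESeq2, limma-voom, other filters and scalings and both blocks, the enzymes kept their direction, except Ptges3, which was -0.064 with no scaling beyond the library total. That setting moved the median of all genes to -0.062. With each sample left out in turn, the log2 fold change ran from -0.56 to 0.68 for Ptgs2, -1.09 to 0.48 for Ptges, -0.32 to 0.31 for Ptges3, -0.050 to 0.67 for Alox5ap, -0.048 to 0.23 for Lta4h and -1.18 to 0.22 for Hpgds, so the direction of these 6 depended on single libraries, and the cause was not tested. Below 0 throughout were Pla2g4a (-0.21 to -0.0061), Ptgs1 (-0.37 to -0.13), Tbxas1 (-0.079 to -0.052) and Alox5 (-0.56 to -0.053). A genotype left with 1 sample is assumed to vary like the other.

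Genes with an adjusted p under 0.05 numbered 0 in edgeR, 1 in DESeq2 and 0 to 1061 with a sample left out, and 35 genes had an unadjusted p under 0.05. Without Dnmt1 KO replicate 2 there were 1061 such genes, among them Dnmt1 (-1.05, adjusted p = 0.02 from edgeR, against 1.00 with any other sample left out) and 0 of the 10 enzymes. Without Dnmt1 fl/fl replicates 1 and 2 there were 2 and 10, and without Dnmt1 KO replicate 1 there were 0. Genes with an unadjusted p under 0.05 were 60 with no filter and 43 to 3521 with a sample left out, with 84 without Dnmt1 fl/fl replicate 2, 352 without Dnmt1 KO replicate 1 and 3521 without Dnmt1 KO replicate 2.

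Among the enzymes, 0 to 2 had an unadjusted p under 0.05 with a sample left out, namely Ptges (-1.09) without Dnmt1 KO replicate 1 and Alox5ap (0.67) and Hpgds (-1.18) without Dnmt1 KO replicate 2. Those lower without overlap then numbered 4 to 6 (20% to 41.8% of all genes), those higher 0 to 3 (20.1% to 41%), those at -0.2 or lower 1 to 5 (20.4% to 38%) and those at 0.2 or higher 0 to 5 (20.9% to 34.3%).

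Among the other pathway genes, those with an adjusted p under 0.05 numbered 0 to 6 with a sample left out, and those with an unadjusted p under 0.05 were 0 with no scaling and 0 to 12 with a sample left out. Those lower in every Dnmt1 KO sample were 14 to 21 and those higher 15 to 26 with a sample left out, when the same shares of all genes apply, and 3 were higher with no scaling.

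Same-numbered samples did not deviate together (r = -0.35 across genes). With 2 samples a genotype, this correlation cannot show whether samples were paired, and the study names no pairing. With the replicate block, 0 genes had an adjusted and 34 an unadjusted p under 0.05, with 0 of the other pathway genes, and it changed no other call. With the crossed pairing, added after seeing the data, 3 genes had an adjusted and 297 an unadjusted p under 0.05, 4 of them other pathway genes and 0 enzymes.

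Level orders used exon length. Coding length is shorter for each enzyme, so by it every level must rise, and 9 of 10 moved beyond their spread. Only a change of order is informative there. Ptgs2, with 30 to 86 counts, is the enzyme that depth limits most.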
